A study of Rattus norvegicus with 4 samples.

Results

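The 10 genes described here encode the enzymes that take uridine, cytidine and uracil through breakdown, reuse and synthesis in the liver, and *Upp2*, a uridine phosphorylase, leads them. They were taken by symbol from the 16999 genes analysed, and rows that carried the same symbol were added together. The set was selected on the TPM of *Upp2* at 6 h against 0 h, which was raised the most evenly by both agents, so the values of *Upp2* after 6 h of anesthesia are a description and were not tested. The other 9 genes were added for their place in the same pathway.

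Expression was measured by RNA sequencing of liver from wild-type rats that inhaled sevoflurane at 4.5% or desflurane at 6%, which are halogenated agents for general anesthesia. Per agent, a control rat was killed by decapitation at the moment of losing consciousness (sevoflurane 0 h and desflurane 0 h), and another rat was killed in the same way after 6 h of inhalation (sevoflurane 6 h and desflurane 6 h). The controls had thus inhaled the agent as well, for a short time, and no untreated rat is among the 4 libraries. Each group was 1 library, so a difference between groups is a difference between single animals and has no replicate check.

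The removal of the livers differed by 6 h between anesthetized rats and controls, so the hours under anesthesia and the time of day cannot be told apart in either comparison of 6 h with 0 h. The comparison of the 2 controls and that of the 2 anesthetized rats were made at the same hours of anesthesia. The choice of *Upp2* did not use these 2 comparisons directly, but it used its values in all 4 libraries. For *Upp2* they are thus not free of that choice. Abundance is given as TPM, a measure scaled for gene length and sequencing depth, so that levels of different genes can be set side by side. The depth was 3.50 to 5.57 Gb of aligned bases, lowest in sevoflurane 0 h. The tables hold no read counts, so the counting error of a value is unknown. All 10 hepatocyte markers were above a TPM of 2 in every library and their summed TPM stayed between 103464 and 115044. Albumin (*Alb*) was listed at a TPM of 57453 and 55977 in the sevoflurane libraries at 0 h and 6 h and of 58868 and 53282 in the desflurane libraries at 0 h and 6 h, and this order is kept for every set of 4 values below.

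Uridine phosphorylases split uridine into uracil and ribose 1-phosphate. The base can then be degraded in a reductive pathway to beta-alanine, carbon dioxide and ammonia, in which dihydropyrimidine dehydrogenase (*Dpyd*), dihydropyrimidinase (*Dpys*) and beta-ureidopropionase (*Upb1*) act in this order. Uridine-cytidine kinases (*Uck1*, *Uck2* and the related *Uckl1*) instead return the nucleosides to the nucleotide pool, cytidine deaminase (*Cda*) turns cytidine into uridine, and *Umps* completes the synthesis of UMP from small precursors. The liver is the main organ that clears uridine from blood and supplies it anew, and uridine levels in rodents are known to follow a daily rhythm. *Upp2* is known as the phosphorylase of liver, whereas its paralog *Upp1* is found in many tissues.

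*Upp2* lay on the forward strand of chromosome 3 (chr3:44806106-44846464, rn6) and *Upp1* on the forward strand of chromosome 14 (chr14:89315689-89334056, rn6). Sequences 250 bases before to 50 bases after the start of a gene were given for 7 of the 10 genes by RefSeq (assembly GRCr8, which is not the build of the tables), and were matched by symbol. The 2 phosphorylase promoters are shown because these genes encode the same activity and differed in their response. The sequences are written 5′ to 3′ along the gene, with CpG dinucleotides in capitals.
*Upp2* (chr3:63681576-63681875, GRCr8, forward strand): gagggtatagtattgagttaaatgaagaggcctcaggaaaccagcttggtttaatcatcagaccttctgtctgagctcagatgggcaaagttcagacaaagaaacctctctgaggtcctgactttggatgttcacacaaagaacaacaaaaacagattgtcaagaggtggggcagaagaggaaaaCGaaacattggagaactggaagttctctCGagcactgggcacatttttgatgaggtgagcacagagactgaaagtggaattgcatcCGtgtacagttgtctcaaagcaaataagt
*Upp1* (chr14:88024420-88024719, GRCr8, forward strand): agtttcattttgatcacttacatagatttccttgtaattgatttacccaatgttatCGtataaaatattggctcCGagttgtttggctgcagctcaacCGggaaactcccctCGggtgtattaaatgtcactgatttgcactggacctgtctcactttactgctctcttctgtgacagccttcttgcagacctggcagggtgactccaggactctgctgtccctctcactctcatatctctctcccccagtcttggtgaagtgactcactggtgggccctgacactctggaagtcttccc
The *Upp2* promoter holds 3 CpG dinucleotides and has a GC content of 43.7%, which was the lowest of the 7, and the *Upp1* promoter holds 4 with a GC content of 47.7%. The other 5 had 6 (*Upb1*), 14 (*Dpyd*), 15 (*Cda*), 17 (*Uck1*) and 26 (*Uck2*) CpG dinucleotides, against a median of 7 and a median GC content of 51.7% in all 33469 promoters of the table. Of those promoters, 20.9% had a lower GC content than that of *Upp2*. Neither the E-box CACGTG nor the D-box TTATGTAA, searched on both strands, was in any of the 7 promoters, while 6.42% and 0.893% of all promoters hold them. These motifs are bound by the circadian factors CLOCK with ARNTL and DBP with its relatives, respectively. The absence of these letters from a window of 300 bases says nothing about the binding of those factors.

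*Upp2* was expressed at a few TPM in both controls and was among the high genes of both anesthetized rats. Its TPM was 2.74 in sevoflurane 0 h, 186 in sevoflurane 6 h, 5.83 in desflurane 0 h and 351 in desflurane 6 h. Both 6 h values lie far above both 0 h values, whichever control is taken. In the order of all 16999 genes by TPM, *Upp2* held place 7162 in sevoflurane 0 h and 421 in sevoflurane 6 h, and 5600 and 226 in the corresponding desflurane libraries. Against the control of the same agent, the TPM was 67.9-fold higher with sevoflurane and 60.2-fold higher with desflurane, or 5.64 and 5.69 on the scale of log2(TPM + 1). When the 2 controls were exchanged, the ratios were 31.9 for sevoflurane and 128 for desflurane, which shows how far these folds rest on the low and unequal values of the controls. The mean coverage per base behind the values was 6.47, 637, 20.1 and 1276, so the control values are the least precise. Among all genes, the smaller of the log2 changes with the 2 agents was highest for *Upp2*, followed by 5.15 for *Cyp2b1*, a cytochrome P450 induced by many drugs, and 5.10 for *Sds*, serine dehydratase. As liver was sequenced in bulk, more RNA in each cell and more cells that express the gene cannot be told apart.

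**Figure D1:**
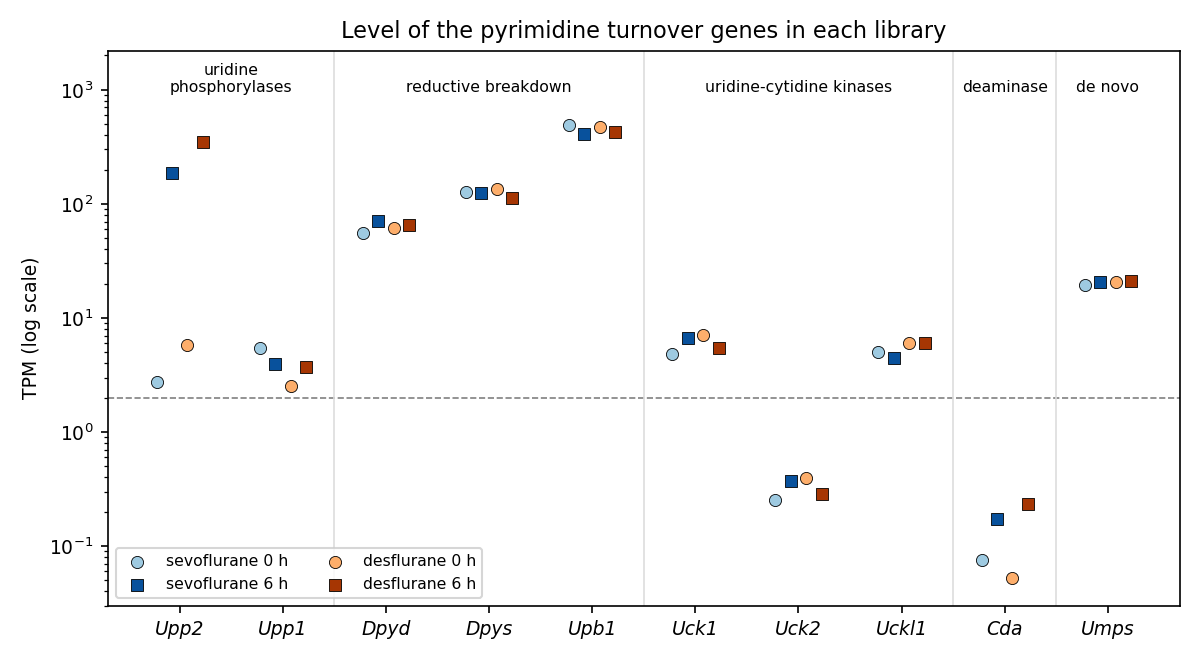
TPM (log axis) of the 10 genes in each of the 4 libraries, with 1 point per library, circles for 0 h and squares for 6 h, ordered by role; the dashed line is a TPM of 2. *Upp2* moves from 2.74 and 5.83 to 186 and 351, while the points of the other genes above the line lie close together.

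*Upp1*, which catalyzes the same reaction, stayed low. Its TPM was 5.41, 3.91, 2.53 and 3.73, so the 6 h values lie between those of the controls. The ratio of 6 h to 0 h was 0.724 with sevoflurane and 1.47 with desflurane, and neither passed the rule for a call, which asked for a TPM above 2 in the higher library and a ratio above 2. The direction depends on which control is used, since sevoflurane 6 h was 1.55-fold higher than the desflurane control and desflurane 6 h was 0.689-fold of the sevoflurane control.

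The genes of reductive breakdown were high and even. *Upb1* (chr20:14167383-14193724, reverse strand, rn6) was by named row the most abundant of the 10 genes in every library, with a TPM of 489, 408, 474 and 430. *Dpys* (chr7:78769918-78847941, reverse strand, rn6) had a TPM of 128, 123, 136 and 114. *Dpyd* (chr2:221823692-222694627, forward strand, rn6), the rate-limiting step of the pathway, had a TPM of 55.8, 71.2, 60.9 and 65.2. None of these genes passed the rule in either agent. The ratios with sevoflurane were 1.28 for *Dpyd*, 0.962 for *Dpys* and 0.833 for *Upb1*, and those with desflurane were 1.07, 0.837 and 0.906. For *Upb1* both 6 h values are below both 0 h values, and the same holds for *Dpys*, but the highest TPM exceeded the lowest only 1.20-fold for each.

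The kinases were expressed at low levels. *Uck1* (chr3:11271874-11277757, reverse strand, rn6) had a TPM of 4.78, 6.63, 7.08 and 5.41, with a ratio of 1.39 for sevoflurane and 0.764 for desflurane. *Uckl1* (chr3:177066037-177078611, reverse strand, rn6) had a TPM of 5.002, 4.42, 6.09 and 6.01, with ratios of 0.884 and 0.988. The 0 h and 6 h values of both genes overlap. *Uck2* (chr13:85376716-85443976, reverse strand, rn6) stayed below the minimum in every library, between 0.255 and 0.395, and was not judged.

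*Cda* also stayed below the minimum. Its symbol covers 2 rows on the reverse strand of chromosome 5 (chr5:156703579-156734541 and chr5:156756578-156781328, rn6) whose values are equal within each library, so reads that fit both copies could have been split between them and the gene's level is uncertain. The summed TPM was 0.076, 0.173, 0.052 and 0.235. Both 6 h values exceed both 0 h values, but all of them are far under a TPM of 2 and no change was called. *Umps* (chr11:70034181-70044590, forward strand, rn6) was the most even of the 10 genes, with a TPM of 19.6, 20.5, 20.5 and 21.1 and a highest value 1.08-fold above the lowest.

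Of the 10 genes, 8 were above a TPM of 2 in at least 1 library, and a gene could be called only if it was. With sevoflurane the rule called *Upp2* higher and none lower, beside 5.04% of all 8270 genes above the minimum called higher and 3.71% called lower. With desflurane it again called *Upp2* higher and none lower, beside 4.1% of 8372 genes called higher and 5.55% called lower. Since this contrast chose *Upp2*, nothing is read from that count. The other 7 genes above the minimum had ratios between 0.724 (*Upp1*) and 1.39 (*Uck1*) with sevoflurane, and between 0.764 (*Uck1*) and 1.47 (*Upp1*) with desflurane. The genes at the ends of this range are thus the same pair with the places exchanged. They are also the ends of the range between the 2 controls, at 0.468 (*Upp1*) and 1.48 (*Uck1*). With the control of the other agent the changes of both genes had the opposite sign. The median change of those 7 genes was -0.06 with sevoflurane and -0.02 with desflurane on the scale of log2(TPM + 1), against 0.05 and -0.10 for the 9201 genes whose mean TPM reached 1.

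**Figure D2:**
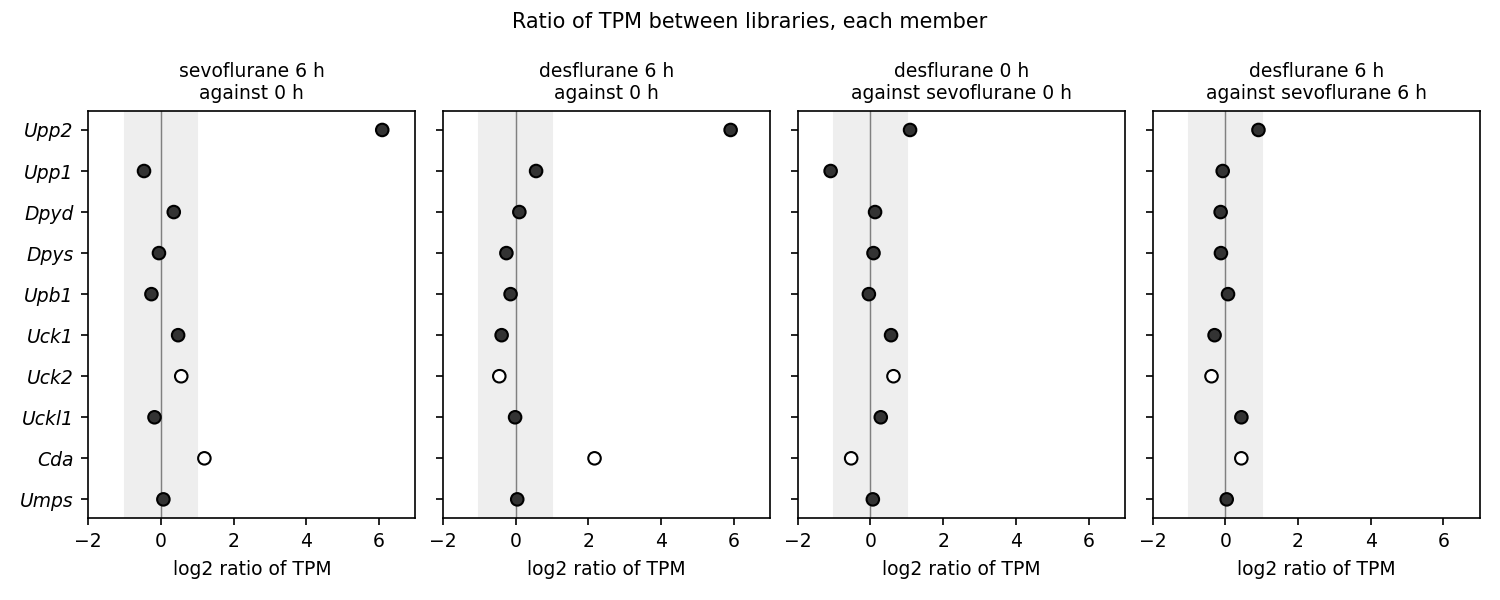
Log2 ratio of TPM for each of the 10 genes in the 4 comparisons, 1 panel each; the grey band marks ratios within 2-fold and open circles are genes under a TPM of 2 in both libraries. *Upp2* stands at ratios of 67.9 and 60.2 in the first 2 panels, and the other filled points there lie inside the band.

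The 2 controls differed from each other in both phosphorylases, in opposite directions. *Upp2* was 2.13-fold higher in desflurane 0 h than in sevoflurane 0 h (5.83 against 2.74), and *Upp1* was 2.14-fold lower (2.53 against 5.41). These were 2 of the 8 genes above the minimum, where 1.96% of all 8263 genes were called higher and 0.799% lower in the desflurane control. Both ratios are only just past 2, both rest on a TPM under 6, and the *Upp2* call is lost when libraries are scaled by the median of their ratios. The summed TPM of both phosphorylases was nearly the same in the controls, at 8.15 and 8.36. The other 6 genes above the minimum had ratios up to 1.48, that of *Uck1*. The median of the 7 genes other than *Upp2* was 0.08, against 0.11 for all genes.

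Between the anesthetized rats, none of the 10 genes was called, beside 2.21% of 8229 genes called higher and 1.77% called lower in desflurane 6 h. The TPM of *Upp2* was 1.88-fold higher with desflurane than with sevoflurane (351 against 186), beside the 2.13 found between their controls. The closeness of these ratios restates the near-equal rises of 67.9-fold and 60.2-fold, on which *Upp2* was chosen, and is no separate result. The ratios of the other 7 genes above the minimum ran from 0.816 (*Uck1*) to 1.36 (*Uckl1*), with a median log2 difference of -0.06 against -0.03 for all genes. *Upp1* was at 3.91 and 3.73.

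Sums by branch follow *Upp2*, which was chosen for this change and carries most of the phosphorylase sum at 6 h, and they are given as a description. The summed TPM of the phosphorylases *Upp1* and *Upp2* was 8.15, 190.1, 8.36 and 354. The summed TPM of *Dpyd*, *Dpys* and *Upb1* was 673, 602, 671 and 609, or 0.895-fold of the control with sevoflurane and 0.907-fold with desflurane. The kinases *Uck1*, *Uck2* and *Uckl1* together had a TPM of 10.04, 11.4, 13.6 and 11.7. By named row the phosphorylase sum was thus below the kinase sum in both controls, at 0.812 and 0.616 of it. It exceeded the kinase sum at 6 h, at 16.6 with sevoflurane and 30.3 with desflurane. The control ratios rest on a few TPM. In sevoflurane 0 h the largest assembled loci were at 4.56 (*Upp2*), 7.34 (*Upp1*), 4.78 (*Uck1*) and 5.002 (*Uckl1*), so the order there depends on the row used. In desflurane 0 h they were at 9.68, 2.60, 7.08 and 6.09, with the kinases still higher in sum. *Upp2* made up 33.6% and 69.7% of the phosphorylase TPM in the sevoflurane and desflurane controls and 97.9% and 98.9% in the respective 6 h libraries. Within the summed TPM of the 10 genes, *Upp2* had a share of 0.386%, 22.6%, 0.817% and 35.2%.

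In both controls the order of the 4 highest genes by TPM was *Upb1*, *Dpys*, *Dpyd* and *Umps*, and their ranges over the 4 libraries do not overlap. *Upp2* stood eighth of the 10 genes in sevoflurane 0 h and seventh in desflurane 0 h, and second in both 6 h libraries. The TPM of *Upp2* per TPM of *Dpys* was 0.0214, 1.51, 0.0429 and 3.08, so *Upp2* passed *Dpys* with both agents. Per TPM of *Upb1* it was 0.00561, 0.457, 0.0123 and 0.816, so by named row it stayed below *Upb1* in every library. By the most abundant assembled locus of each gene, described below, *Upp2* was above *Upb1* in desflurane 6 h alone, at 564 against 460. The ranges of *Upp1*, *Uck1* and *Uckl1* overlap, and the order among these 3 genes was not the same in all libraries, with *Upp1* first in sevoflurane 0 h and last in the others.

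The rest of pyrimidine metabolism was examined with 62 genes listed by function, of which 60 were found and 48 were above a TPM of 2 in at least 1 library of each comparison of 6 h with 0 h. With sevoflurane 1 gene was called higher and 3 lower, which is 8.33% of the 48 beside 8.75% of all genes. With desflurane 1 gene was called higher and 2 lower, which is 6.25% beside 9.65%. Both shares are under that of all genes. The median change was -0.13 with sevoflurane and -0.25 with desflurane over the 51 genes whose mean TPM reached 1, against 0.05 and -0.10 for all genes. In the controls 2 of the 48 genes were called, both higher in desflurane (4.17% beside 2.76% of all genes), and between the 6 h libraries 1 of 46 (2.17% beside 3.99%).

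Of these neighbors, *Gys2*, the liver glycogen synthase that consumes UDP-glucose, was called with both agents. Its TPM was 23.2, 74.1, 19.25 and 103, so both 6 h values lie well above both controls. Of the nucleoside transporters, which bring uridine into the cell, 2 were above the minimum. With each agent 1 of them was called lower, beside 3.71% of all genes with sevoflurane and 5.55% with desflurane. The called gene was not the same, but both genes were lower at 6 h with both agents. *Slc28a2*, a concentrative transporter, had a TPM of 49.7, 22.8, 54.6 and 35.1 and passed the rule with sevoflurane alone, with both 6 h values below both 0 h values. *Slc29a1*, an equilibrative transporter, had a TPM of 21.35, 16.7, 18.1 and 7.71 and fell with desflurane, where it was also called lower than in sevoflurane 6 h. Whether these responses differed between the agents was not tested. The other 5 transporters stayed under a TPM of 2.

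The remaining calls came from genes of low expression. *Samhd1*, which breaks down deoxynucleoside triphosphates, had a TPM of 3.15, 0.95, 2.09 and 1.21 and was called lower with sevoflurane. *Cmpk2*, a mitochondrial kinase of CMP and UMP known as an interferon response gene, had a TPM of 2.07, 1.02, 2.05 and 1.10 and was likewise called lower with sevoflurane. For both genes the 6 h values lie below both 0 h values. *Nt5c*, a nucleotidase, had a TPM of 1.68, 2.80, 3.37 and 1.44 and was called lower with desflurane, but also higher in the desflurane control than in the sevoflurane control, and the 0 h and 6 h values overlap. *Dctpp1*, which cleaves dCTP, was called between the controls, with 3.10, 5.16, 8.03 and 7.87.

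The lists for pyrimidine synthesis, beta-amino acid disposal and ribose 1-phosphate gave no call in any of the 4 comparisons. The listed genes of pyrimidine synthesis were *Cad* at 3.87, 5.08, 5.43 and 4.46, *Dhodh* at 6.92, 7.23, 7.09 and 7.83, *Ctps1* at 4.81, 8.86, 5.19 and 5.35 and *Ctps2* at 6.02, 7.11, 8.35 and 8.32 (TPM). The genes that dispose of the beta-amino acids made by *Upb1* were even too. *Abat* had a TPM of 78.0, 66.2, 79.2 and 65.3, *Agxt2* of 85.2, 96.8, 93.05 and 82.3 and *Aldh6a1* of 218, 233, 227 and 223. The 7 genes found of the list for ribose 1-phosphate, the other product of the phosphorylases, had a median change of -0.20 with sevoflurane and 0.04 with desflurane. Thymidine phosphorylase, *Tymp*, which acts on the deoxynucleoside, had a TPM of 169, 147, 217 and 112 and was not called.

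The nucleotide kinases, which phosphorylate UMP and its relatives further, leaned downward with desflurane. All 8 genes whose mean TPM reached 1 were lower at 6 h than in the desflurane control, with a median of -0.34 against -0.10 for all genes, but none reached a ratio of 2. With sevoflurane 5 of the 8 were higher and 3 lower, with a median of 0.05. For the nucleotidases, 8 of 9 genes were lower with desflurane at a median of -0.36, and 5 of 9 with sevoflurane at -0.16. For comparison, 22 of 24 listed genes of purine turnover were found and 18 were above the minimum. None was called with sevoflurane, beside 8.75% of all genes, and 1 with desflurane, which is 5.56% beside 9.65%. The called gene was *Hprt1*, which salvages hypoxanthine and guanine and had a TPM of 54.6, 75.0, 32.4 and 71.7. Its desflurane control was thus the lower of the 2 controls. The medians of this list were 0.18 and 0.02.

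**Figure D3:**
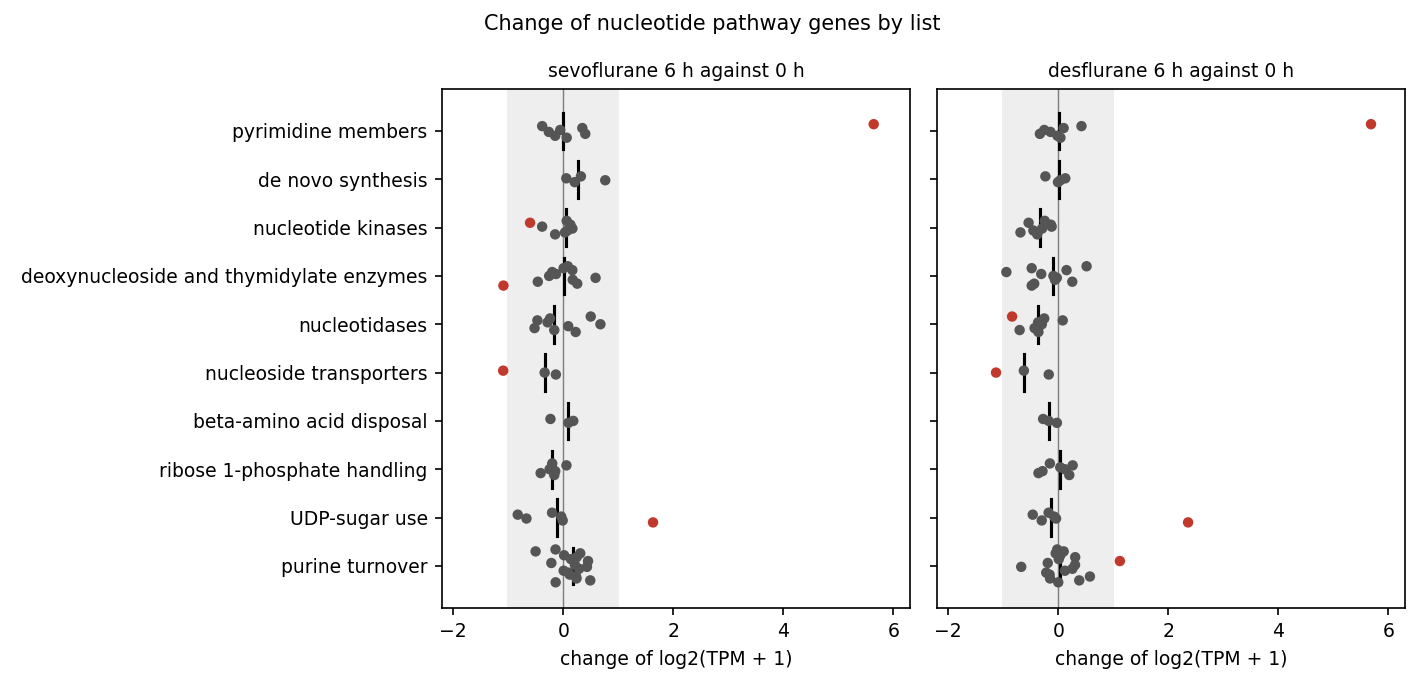
Change of log2(TPM + 1) at 6 h against 0 h for each gene whose mean TPM reached 1, by functional list and agent; the short bar is the list's median, the grey band spans -1 to 1, and red points are genes called by the ratio of TPM itself, so that a called gene of low TPM can lie inside the band. *Upp2* is at 5.64 and 5.69, and the next called gene that is higher with both agents is *Gys2* at 1.63 and 2.36.

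Genes whose course over the 4 libraries was most like that of *Upp2* were sought by the root mean square distance between profiles of log2(TPM + 1), each centred on its own mean. Over 9200 genes the median distance was 2.88, and the 5 nearest genes were *Sds* (0.587), *Cyp2b1* (0.618), *Gadd45b* (0.708), *Dbp* (0.746) and *Lpin1* (0.869). The TPM of *Cyp2b1* was 5.73, 790, 12.1 and 465. *Gadd45b*, a stress-inducible growth arrest gene, was at 1.31, 32.8, 1.60 and 72.5, and *Lpin1*, a phosphatidate phosphatase, at 5.58, 74.0, 7.43 and 186. All 5 genes were higher in desflurane 0 h than in sevoflurane 0 h, as *Upp2* was. At 6 h *Gadd45b* and *Lpin1* were higher with desflurane, like *Upp2*, whereas *Sds*, *Cyp2b1* and *Dbp* were higher with sevoflurane. The 7 other pyrimidine genes above the minimum lay between 2.76 (*Dpyd*) and 2.97 (*Upb1*) from *Upp2*, around the median of all genes. The profile is made of the same values by which *Upp2* was chosen. Genes that rose strongly with both agents therefore lie near it by construction, and genes that changed little do not. With 4 libraries and a step between 0 h and 6 h in each pair, likeness in this measure is a description of these animals.

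**Figure D4:**
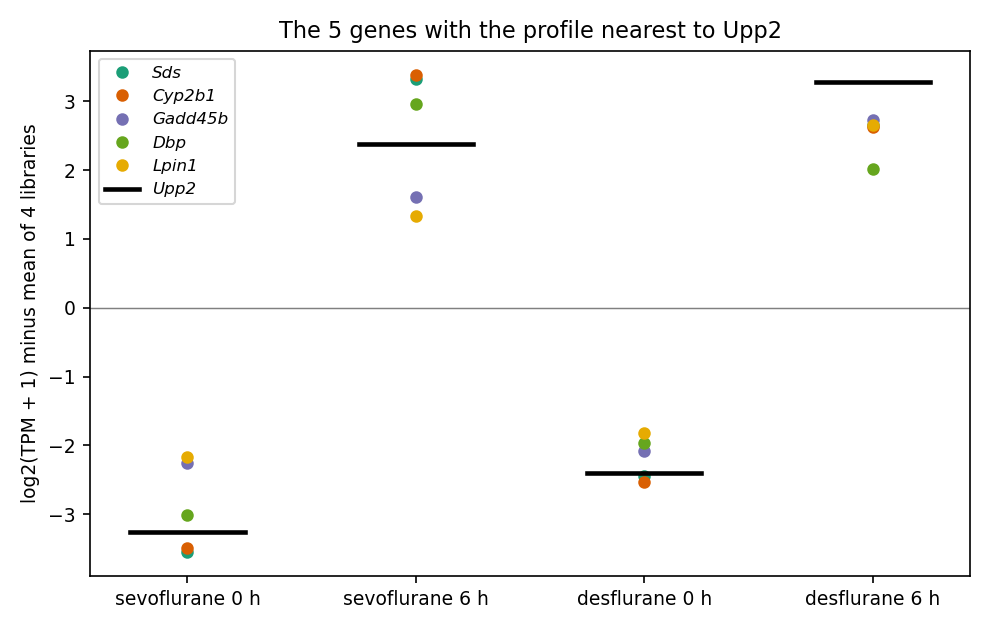
Profile of *Upp2* (black bars) and of the 5 nearest genes (points), as log2(TPM + 1) minus the gene's mean over the 4 libraries. All 6 genes are below 0 in both controls and above 0 in both 6 h libraries, and *Upp2* is at 3.29 in desflurane 6 h, above the other 5.

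Genes that follow the time of day or the fasting state moved along with *Upp2*. Of 13 clock genes found, 12 were above the minimum, of which sevoflurane had 8 called higher and 3 called lower (91.7% beside 8.75% of all genes, median 2.34) and desflurane had 7 and 1 (66.7% beside 9.65%, median 1.35). *Dbp*, a clock output factor, had a TPM of 0.40, 87.9, 1.92 and 44.8. *Nr1d1*, a clock repressor, was at 0.41, 7.65, 2.41 and 7.95, and *Arntl*, which it represses, ran the other way, at 22.6, 0.43, 17.6 and 2.14. Of 12 genes of fasting and glucocorticoid action, sevoflurane had 10 called higher and 1 called lower (91.7% beside 8.75% of all genes, median 1.96), and desflurane had 8 called higher (66.7% beside 9.65%, median 1.82). *Tat*, tyrosine aminotransferase, had a TPM of 123, 529, 119 and 623, and *Sds* was at 8.66, 1135, 19.8 and 714. Genes of both lists also differed between the 2 controls, where *Upp2* differed 2.13-fold. In desflurane 0 h 2 clock genes were called higher and 1 lower of the 7 above the minimum (42.9% beside 2.76% of all genes), and 3 of 11 genes of the fasting list were called higher (27.3%). Between the 6 h libraries 4 of 12 clock genes were called, 2 in each direction (33.3% beside 3.99% of all genes), and 3 of 12 genes of the fasting list were called higher with desflurane. The part of either in the values of *Upp2* was not tested, and it cannot be told apart from that of the anesthesia.

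Markers of other cells were low beside those of hepatocytes. The summed TPM of 15 leukocyte markers was between 175 and 227, with 2 of them at 0 in at least 1 library. *Ptprc*, found on all leukocytes, was at 5.38, 3.32, 5.43 and 4.84, and *Clec4f* of Kupffer cells at 134, 112, 134 and 141. Endothelial markers summed to between 50.5 and 60.4 and those of biliary and stellate cells to 113, 164, 122 and 177, and none of these genes was called. The latter sum was higher at 6 h with both agents, but most of it was *Col3a1*, at 84.3, 135, 94.6 and 146. Of the 6 biliary and stellate markers whose mean TPM reached 1, 3 were higher and 3 lower with sevoflurane. With desflurane 5 were higher and 1 lower. Of 12 leukocyte markers whose mean TPM reached 1, 10 were lower at 6 h with sevoflurane (median -0.49) and 5 with desflurane (median 0.04). Of those above the minimum, 2 of 11 were called with sevoflurane, 1 in each direction (18.2% beside 8.75% of all genes). With desflurane 1 of 9 was called, lower (11.1% beside 9.65%), and between the controls 1 of 11 (9.09% beside 2.76%). Pancreatic acinar markers summed to at most 2.11, with 3 of 9 at 0 in every library. The 5 red blood cell markers summed to 611, 1626, 961 and 1806.5, so they were higher at 6 h than at 0 h with both agents, as *Upp2* was. Of these markers 4 were above the minimum. All 4 were called higher with sevoflurane, beside 5.04% of all genes, and 0 with desflurane, beside 4.1%. Their part in the results was not tested.

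The tables also list loci assembled from the same reads, independent of gene names. On the strand of *Upp2* such a locus covered the gene in all 4 libraries, with a TPM of 4.56, 289.7, 9.68 and 564. Its ratios were 63.6 with sevoflurane and 58.2 with desflurane, 2.13 between the controls and 1.95 between the 6 h libraries, close to those of the named row. The locus ran on for between 5559 and 5613 bp past the end of the named row, ending at 44852023 to 44852077 of chromosome 3. Its start lay 143 and 102 bp before the row in the sevoflurane and desflurane controls, and inside the row, at 44806238 and 44806327, in the respective 6 h libraries. Reads past the annotated end were thus seen in every library, with and without prolonged anesthesia. A transcript from the opposite strand was listed within the named *Upp2* row in desflurane 6 h alone, with a length of 519 bp and a TPM of 1.77. In sevoflurane 6 h another was listed at 44846897 to 44853339, with a TPM of 1.11. It began past the end of the named row and overlapped the end of the assembled locus.

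**Figure D5:**
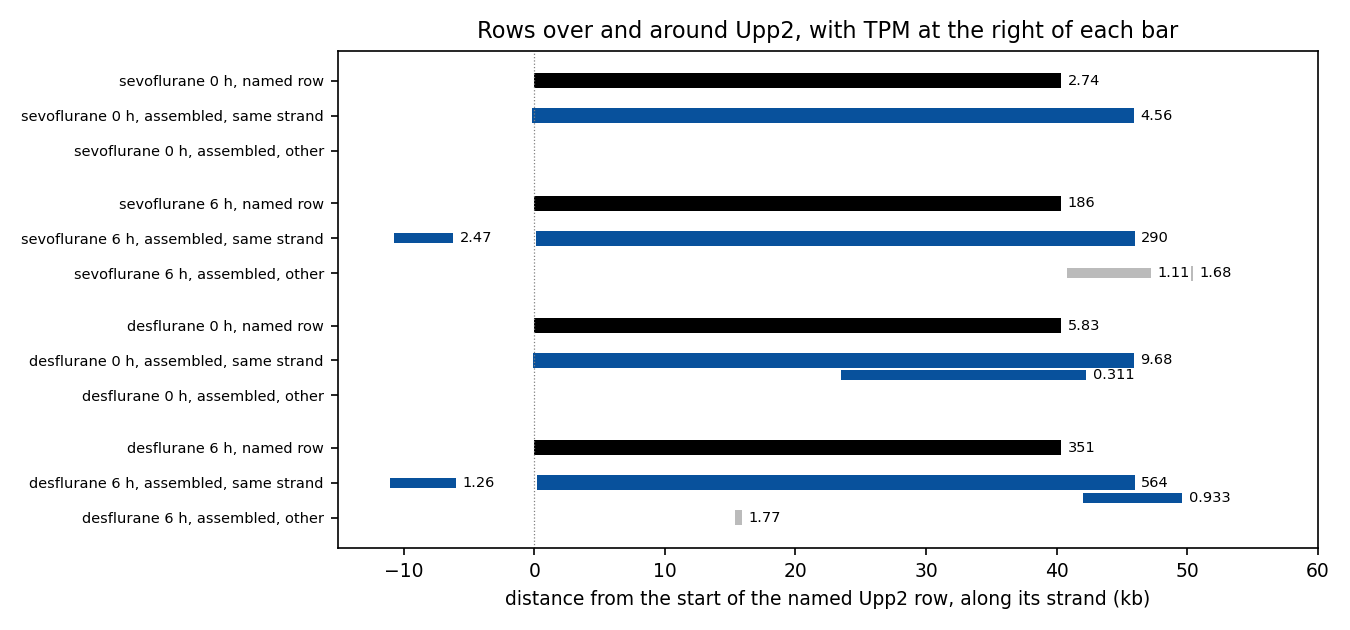
Rows listed over and around *Upp2* in each library, drawn to scale by distance from the start of the named row, with the TPM at the right of each bar; black bars are the named gene, blue bars are assembled loci on its strand and grey bars are assembled loci on the other strand or with none. The blue bar over *Upp2* extends beyond the black bar in all 4 libraries, and the upstream blue bars, at 2.47 and 1.26, appear in the 6 h libraries only.

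For the other genes the most abundant assembled locus on the gene's strand gave ratios between 0.552 (*Upp1*) and 1.40 (*Uck1*) with sevoflurane, and between 0.824 (*Uck1*) and 1.43 (*Upp1*) with desflurane, where *Uck2* is left out because no such locus was listed in sevoflurane 0 h, and *Cda* because none was listed in any library. *Upp1* was assembled as 2 loci in sevoflurane 0 h and as 1 in the other libraries, and its ratio between the controls was 0.354 by the larger locus, against 0.468 by the named row. *Dpyd* was assembled whole in desflurane 6 h and in 2 pieces elsewhere, and *Upb1* in 2 pieces in every library.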

How the data were processed

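RNA sequencing of rat liver gave 4 libraries (RNeasy Midi total RNA, TruSeq Stranded Total RNA Gold), grouped by their labels. The submitters' processing notes name HISAT2, SAMtools, StringTie and the build rn6, without versions. For each library the authors deposited a gene abundance table. The deposited TPM is handled as a score, because a column sums to more than TPM allows, the rows of named genes (766045 to 789239) coming on top of those of the assembled loci. The FPKM deposited by the authors differs from TPM by a factor of 1.48 to 1.57 within a library. The coverage deposited by the authors is the mean depth per base, not scaled for library size, and a TPM of 2 stands for a coverage of 4.72 to 7.28.

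Rows with a span of up to 200 bp were dropped and rows of 1 symbol (397 symbols) were summed, which leaves 16999 of 17455 symbols. A gene was called where the higher TPM was above 2 and the ratio above 2. Log2 differences used log2(TPM + 1), which understates changes of low genes, and medians and profiles were taken over the 9201 genes whose mean TPM reached 1. No test was run, since each group had 1 library, and the steps were tested on simulated data. The genes named were the 10 enzymes, the neighbors called in a comparison of 6 h with 0 h, the 5 genes nearest to *Upp2*, and *Dbp*, *Nr1d1*, *Arntl*, *Tat*, *Sds*, *Alb*, *Ptprc* and *Clec4f*. *Tymp*, *Dctpp1* and the genes of synthesis and of beta-amino acid disposal were named after their values were seen. The 10 genes, the lists and the tests were chosen with earlier results of these data known. Sequences are from RefSeq (GRCr8). Python 3.11.15, numpy 2.4.6, pandas 2.3.3 and matplotlib 3.10.9 were used. Exon annotation, read counts and the repeat of the experiment at a common hour were not used here.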

Additional observations from a re-analysis of the deposited data

Results flagged for a closer look

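Signal outside the named genes was seen before *Upp2*. On its strand, an assembled locus with no gene name was listed in both 6 h libraries and in neither control. In sevoflurane 6 h it had a TPM of 2.47, a length of 4.49 kb (chr3:44795398-44799890, rn6) and ended 6.22 kb before the start of *Upp2*. In desflurane 6 h it had a TPM of 1.26, a length of 5.05 kb (chr3:44795025-44800075, rn6) and ended 6.03 kb before. The order of the agents is the reverse of that of *Upp2*, which was at 186 and 351 in the same libraries. A locus too weak to be assembled is not listed, so a missing row in the controls does not mean that its level was 0.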

How the results depend on the processing

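*Upp2* was called higher with both agents under all 6 other settings tried for the calls, and its log2 change was 5.39 to 6.03 with sevoflurane and 5.58 to 5.89 with desflurane for another pseudocount, scaling, column, row or the assembled locus. With the control of the other agent it was 4.78 with sevoflurane and 6.55 with desflurane. Without a TPM minimum 2 of the 10 genes were called with each agent, the second being *Cda*. Between the controls, the 2 calls became 0 with a ratio above 3, and 1 after scaling by the median of ratios, which left *Upp1*. The share of all genes called under each other setting is not given here. The counts of calls under those settings, here and in the next paragraph, are therefore not read as results about these genes.

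Of the 5 genes nearest to *Upp2*, 4 were shared with a pseudocount of 0.1 and all 5 at a minimum mean TPM of 5. The alternatives below, and the assembled locus above, were chosen after seeing the data. The other pyrimidine genes called with sevoflurane (4) became 2 with a ratio above 3, 2 with a TPM above 5 and 8 without a minimum. With desflurane (3) they became 1 with a ratio above 3, 8 without a minimum and 5 with the other control. Between the controls (2) they became 0 with a ratio above 3, 1 with a TPM above 5 or after scaling, and 7 without a minimum, and between the 6 h libraries (1) they became 0 with a ratio above 3 and 5 without a minimum. Of 90 log2 changes of the other 9 genes, 9 changed sign, 7 of them with the other control, and none of those was called. The causes were not tested.

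No paired analysis was possible because each group has 1 library, and for the same reason no setting leaves out a library. *Uck2* and *Cda* stayed below the TPM minimum, and *Upp2* had a coverage of 6.47 in sevoflurane 0 h, the shallowest library.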

Other observations

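Within *Uck2* a locus with no strand was listed in desflurane 0 h alone, with a length of 650 bp and a TPM of 37.5, while the named *Uck2* row of that library was at 0.395. With a pseudocount of 0.1 the gene nearest to *Upp2* in profile was *Ciart*, a clock gene, at a distance of 0.266, with a TPM of 0 in sevoflurane 0 h, 9.46 in sevoflurane 6 h, 0.241 in desflurane 0 h and 17.5 in desflurane 6 h.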
